A study of Mus musculus with 4 samples.

Results

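F-box proteins are the parts of SCF ubiquitin ligases that choose the substrate, and the genes described here are the protein-coding mouse genes with an Fbxl, Fbxo or Fbxw number, without Fbxw7, that had a summed count of at least 50 over the 4 libraries. The rule took 49 of the 54532 genes of the deposited table: 14 Fbxl genes (leucine-rich repeats), 27 Fbxo genes (other domains) and 8 Fbxw genes (WD40 repeats). Members were thus chosen by their measured counts, so that they were detected is not a finding. Of 77 such genes without Fbxw7, 28 had under 50 counts, and 14 of those had no count in any library, 11 of them Fbxw genes of chromosome 9. Just inside the limit were Fbxo40 with 77 counts, Fbxw10 with 102 and Fbxo36 with 103; just outside were Fbxo47 with 41 and Fbxl16 and Fbxo24 with 31 each. All 49 had a mean of at least 1 CPM (a count scaled to the library's size), so no member was lost to a filter on low values. A member with a low total can pass such a limit only through the libraries where it is high, and this bears most on Fbxo40, Fbxw10 and Fbxo36.

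The data were RNA sequencing libraries of bone marrow-derived macrophages, which are marrow cells of C57BL/6 mice aged 6 to 8 weeks grown for 6 days in medium conditioned by L929 cells. Every mouse carried floxed Fbxw7 alleles (Fbxw7 f/f), the libraries titled KO also carried LysM-cre, a Cre gene active in myeloid cells, and the libraries titled WT did not; cells were untreated or received lipopolysaccharide (LPS), a bacterial membrane component, for 3 h. Each of the 4 groups held 1 library, so nothing here is checked by replicates, and the LPS dose and the number of mice per library were not given in the sources used here. The genotype tags went against the titles, since they put Fbxw7 f/f on both untreated libraries and LysM-cre on both LPS libraries; groups here follow the titles.

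In an SCF ligase, Skp1 joins the F-box protein to the scaffold cullin 1, whose other end binds Rbx1 and a ubiquitin-conjugating enzyme, and attachment of the small protein NEDD8 to the cullin switches the ligase on. Cells hold many F-box proteins that compete for the same scaffold, and each marks its own substrates, often only after these are phosphorylated. In macrophages the best known example is the pair of beta-TrCP proteins, encoded by Btrc and Fbxw11, which recognise phosphorylated inhibitors of NF-kB after LPS.

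Total counts were 17610372 to 23835940 per library. Fbxw7 itself was at 17.9 CPM in the untreated WT and 17.2 in the untreated KO library, and at 9.90 and 11.7 CPM in the WT and KO libraries with LPS. A gene-level count cannot check the deletion of an exon, so the titles were not tested by it. The lysozyme gene Lyz1 paired the libraries against their titles, with 63 and 43 counts in the untreated WT and the LPS KO libraries and 910 and 569 in the untreated KO and the LPS WT libraries; values below are therefore given for each library, and directions by title carry this doubt. All 9 macrophage markers looked at were at 1 CPM or more, with a summed level of 15733 to 27366 CPM. Of the other marker lists, B cell markers summed to 9.96 to 31.6 CPM, with Cd79b alone of the 5 at 1 CPM or more. Some small marker sums moved with LPS. Dendritic cell markers summed to 1.77 and 2.28 CPM in the untreated WT and KO libraries and to 13.2 and 9.36 CPM with LPS, nearly all of it Xcr1. T cell markers summed to 0.272 and 0.579 CPM untreated and to 3.20 and 6.06 CPM with LPS, nearly all of it Lck. Mast cell markers summed to 0.136, 2.53, 3.90 and 3.55 CPM in the untreated WT, untreated KO, LPS WT and LPS KO libraries, from Kit and Cpa3, while Tpsb2, Cma1 and Mcpt4 had no count. Neutrophil markers summed to 3.18 to 10.6 CPM over the libraries, fibroblast markers to 1.27 to 3.12 and erythroid markers to 0.0612 to 0.582. The part of such cells in the F-box values was not tested. In bulk RNA, fewer cells of a type and less RNA per cell cannot be told apart.

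On the authors' FPKM scale, which divides counts by gene length and so allows genes to be compared, Fbxw11 was the highest member on average. Fbxw11 encodes beta-TrCP2, which recognises phosphorylated IkB, beta-catenin and Period proteins. Its level was 20.3 FPKM in the untreated WT library, 16.8 in untreated KO, 44.7 in LPS WT and 55.4 in LPS KO. Both LPS libraries were above both untreated libraries. Fbxw17, Fbxo11 and Fbxo6 were also among the members of highest mean level, and their ranges over the libraries overlapped, so their order among themselves is not beyond that spread.

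The members together reached 286 and 295 FPKM in the untreated WT and KO libraries and 366 and 362 FPKM in the LPS WT and KO libraries. The median member was at 5.05 and 4.93 FPKM untreated and at 3.35 and 4.09 FPKM after LPS. So the summed level was higher after LPS while the median member was lower, in both titles. The first of these flips with the scaling: computed here with library totals, the sum was 366 and 355 FPKM untreated and 299 and 296 after LPS, and as a share of all counts the members took 0.160% and 0.153% untreated and 0.131% and 0.129% after LPS. The lowest members were Fbxo40, Fbxl21, Fbxw10, Fbxo36 and Fbxo32; Fbxo40, a ligase subunit known from skeletal muscle, was at 0.0805, 0.0253, 0.276 and 0.421 FPKM.

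**Figure D1:**
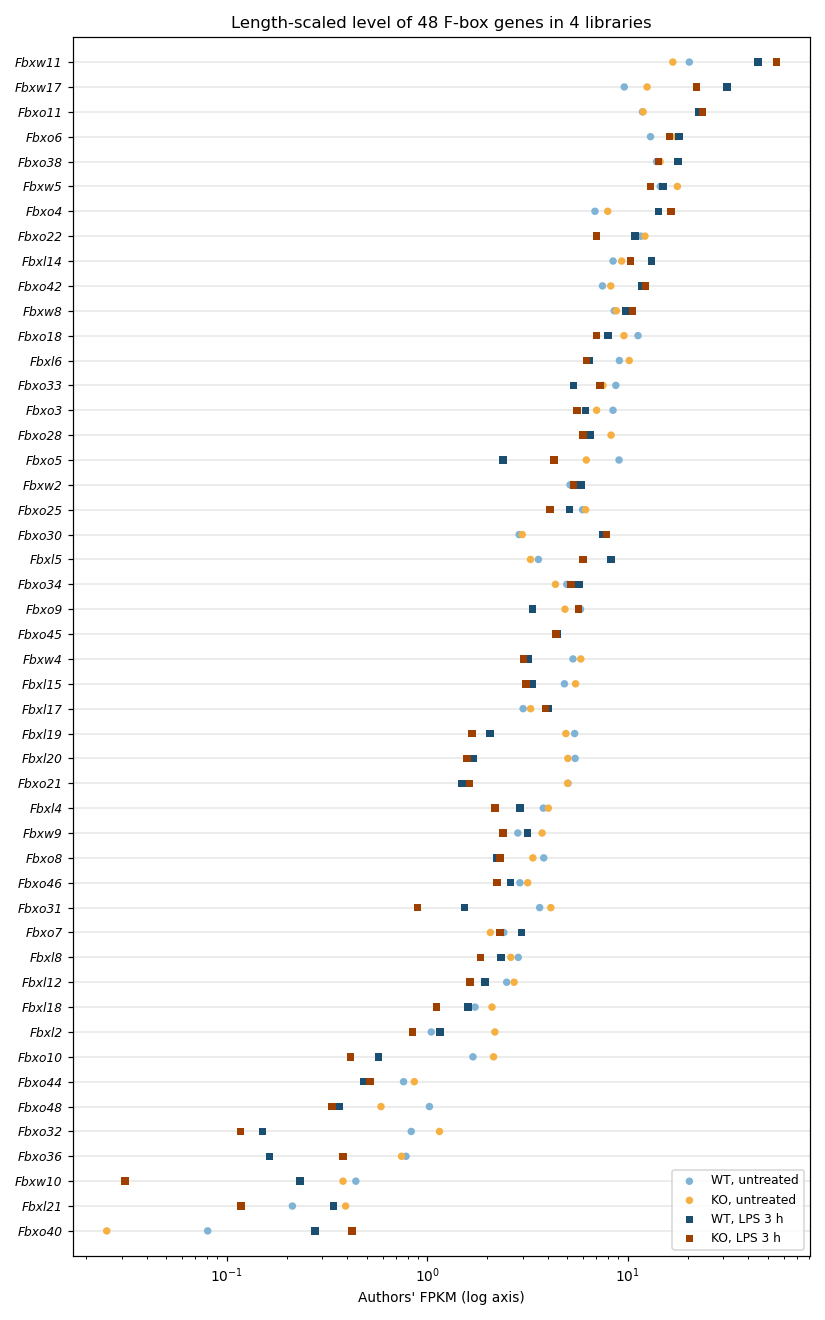
Authors' FPKM (log axis) of 48 of the F-box genes, ordered by mean level, with 1 point per library (circles untreated, squares 3 h LPS; lighter and darker colours give the titles). Fbxw11 is the highest gene drawn after LPS in both titles, and the squares of Fbxl19, Fbxl20, Fbxo21, Fbxo31, Fbxo10 and Fbxo32 lie well below their circles.

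LPS against untreated was compared within each title, on CPM scaled by edgeR's TMM method. A gene was called when it differed by at least 2-fold with an exact 95% binomial interval of its counts that excluded no change; the interval covers counting error only. In the libraries titled WT, 7 of the 49 members were called higher (14.3%) and 9 lower (18.4%), against 15.4% higher and 15.0% lower (30.4% either way) among the 12326 genes with a mean of at least 1 CPM. In the libraries titled KO, 4 were called higher (8.16%) and 11 lower (22.4%), against 14.6% and 17.8% (32.4% either way) of all genes. In the WT titles these shares lie near the background, so the counts are no result about the family. In the KO titles fewer members were higher and more were lower than among all genes. The share called either way there was 30.6% of members, near the 32.4% of all genes. The split by direction rests on few members and was not tested, so these counts are no result about the family either. The median log2 ratio of the members was -0.16 in the WT and -0.58 in the KO titles, beside -0.01 and -0.07 for all genes. The counts given below for lists of members and of partner genes, by role and by class, stand beside these same shares of all genes; the lists are small and none was tested.

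On the TMM scale, both LPS libraries lay above both untreated libraries for 12 members and below them for 26, and 11 members overlapped; among all genes these shares were 34.6% above and 38.1% below. In all 4 pairs of an LPS and an untreated library, whatever the title, 4 members were at least 2-fold higher (Fbxw11, Fbxo30 and Fbxo40 among them) and 6 at least 2-fold lower (Fbxl19, Fbxl20, Fbxo21, Fbxo31, Fbxo10 and Fbxo32), against 9.91% and 8.26% of all genes. The same 10 members were called in both titles. Across the 49 members the 2 LPS responses, which share no library, had a Pearson r of 0.80 and a Spearman rho of 0.78, beside 0.74 and 0.67 over all genes; members are not replicates, and each point shares its gene and its library scaling with the others.

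**Figure D2:**
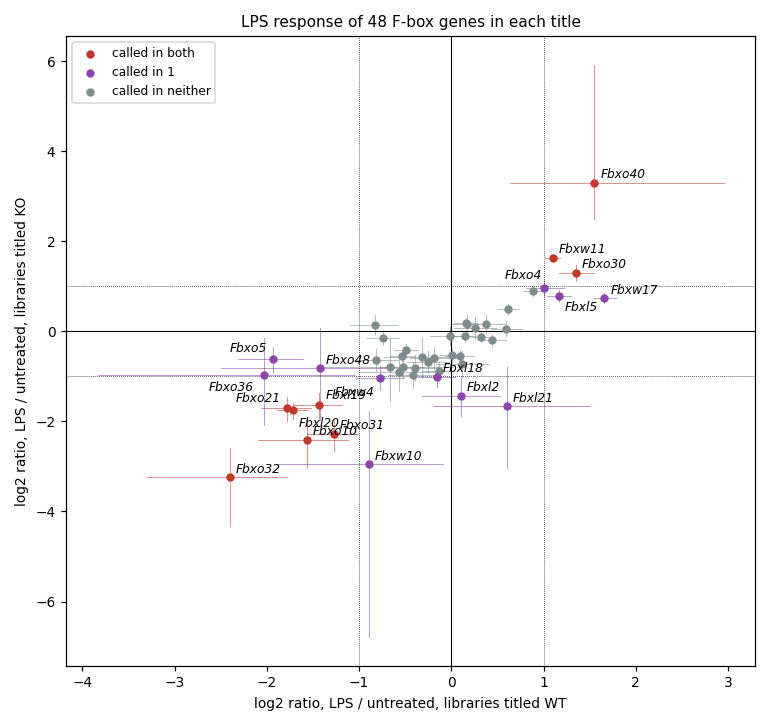
Log2 ratio of LPS to untreated in the libraries titled WT (x axis) and KO (y axis) for 48 of the F-box genes, with exact 95% intervals of the counts; dotted lines mark 2-fold. The 9 drawn genes called in both titles lie in the upper right (3) and lower left (6) corners, and no gene was called in opposite directions.

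Fbxw11 and Fbxl21 are members tied to proteins of the circadian clock. Fbxw11 was at 89.8 CPM in the untreated WT, 75.5 in the untreated KO, 192 in the LPS WT and 234 in the LPS KO library. It was 2.14-fold higher after LPS in the WT titles (95% interval 2.03 to 2.27) and 3.09-fold higher in the KO titles (2.93 to 3.26). Fbxl21 had few reads, with 23, 54, 28 and 9 counts, and was called only in the KO titles, 3.55-fold lower (1.74 to 8.17). The abundant Fbxw11 was thus higher in both titles, while the scarce Fbxl21 had no common direction.

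Of 9 members tied to inflammatory signalling, 1 was called higher and 2 lower in the WT titles, and 1 higher and 3 lower in the KO titles. The higher one was Fbxw11. Fbxl19, which encodes a subunit reported to mark the interleukin-33 receptor, was at 25.3, 23.2, 9.32 and 7.40 CPM in the untreated WT, untreated KO, LPS WT and LPS KO libraries. It was 2.71-fold lower after LPS in the WT titles (2.27 to 3.25) and 3.14-fold lower in the KO titles (2.58 to 3.84). Fbxo21, placed in this list and in that of muscle wasting, was at 28.6, 28.9, 8.27 and 8.81 CPM, 3.46-fold lower (2.88 to 4.18) and 3.28-fold lower (2.75 to 3.95). Fbxl2, whose product is reported to mark TRAF adaptor proteins, was called lower in the KO titles only, with 4.76, 10.1, 5.12 and 3.67 CPM. Its reported regulator Fbxo3 was at 62.5, 52.6, 44.6 and 39.3 CPM and was not called. Fbxo11, whose product marks the transcriptional repressor BCL6, was at 50.2, 51.4, 93.0 and 95.4 CPM; it was 1.85-fold higher in the WT (1.71 to 2.00) and 1.86-fold higher in the KO titles (1.73 to 1.99), under the 2-fold limit in both.

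Sequence near the recorded starts of these last genes shows what lies beside members that went in different directions. RefSeq (GRCm38.p6) promoter records were matched for 38 of the 49 members, and the 250 bases before each recorded RefSeq start, of which a gene may have several, were searched on both strands for 4 motifs. The NF-kB consensus was found for 3 of the 38 matched members, Fbxl19, Fbxo21 and Fbxo11, and for 8.23% of all genes with a record. The share of members lies near that of all genes, so this count is no result about the family. Not all of these stretches lie outside the gene. That of Fbxl19, chr7:127746525-127746774 on the plus strand, precedes an alternative start and begins 1982 bases inside the gene as the deposited table and GENCODE M21 place it, in no exon. That of Fbxo21, on the plus strand, runs 40 bases into the gene, and the 210 bases before the gene, chr5:117976520-117976729, hold the match. That of Fbxo11 precedes an alternative start inside the gene and has 157 of its bases in exons, so it is not printed. The other 2 follow, 5′ to 3′ along the gene's strand, with the matches in capitals.
Fbxl19: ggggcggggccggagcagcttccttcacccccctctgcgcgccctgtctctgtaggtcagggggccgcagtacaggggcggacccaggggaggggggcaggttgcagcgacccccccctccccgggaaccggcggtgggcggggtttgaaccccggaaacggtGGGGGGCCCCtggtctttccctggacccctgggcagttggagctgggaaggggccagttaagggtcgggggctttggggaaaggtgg
Fbxo21: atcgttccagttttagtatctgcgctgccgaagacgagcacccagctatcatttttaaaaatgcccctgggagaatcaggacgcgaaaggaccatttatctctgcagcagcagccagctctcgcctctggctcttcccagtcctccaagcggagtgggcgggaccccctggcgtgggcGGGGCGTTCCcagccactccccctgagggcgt
The stretches of Fbxl19 and Fbxo21, both lower after LPS, held 1 match each, and that of Fbxo11, higher but under the 2-fold limit, held 2. Fbxl19 and Fbxo11 each had another recorded start, and the 250 bases before it held no NF-kB match. Whether matches go with direction was not tested. The interferon response element core (GAAA, 2 bases of any kind, GAAA) was found in 3 members (Fbxl15, Fbxo36 and Fbxo7) and 3.46% of all genes, the AP-1 motif (TGANTCA) in 2 (Fbxl4 and Fbxw5) and 7.82%, and the E-box (CACGTG) in 2 (Fbxl2 and Fbxo10) and 6.86%. The counts over members are small and none was tested. A match is a description of letters, not a bound site, and Fbxl5 had no matched record.

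All 6 members of the muscle wasting list were measured, and 5 of them were called in each title, 2 higher and 3 lower, beside 30.4% of all genes called either way in the WT and 32.4% in the KO titles. Fbxo30, which encodes a ligase subunit induced in wasting muscle, was at 15.3 and 16.1 CPM in the untreated WT and KO and 39.1 and 39.7 CPM in the LPS WT and KO libraries, 2.56-fold higher (2.24 to 2.92) and 2.47-fold higher (2.18 to 2.79). Fbxo40 had 10, 4, 26 and 37 counts; it was 3.34-fold higher in the WT (1.56 to 7.76) and 15.7-fold higher in the KO titles (5.62 to 60.5), where it was set against 4 counts. It passed the limits on counts and CPM through its LPS libraries, so its call is a description of few reads. Fbxo32, encoding atrogin-1, a FoxO-driven ligase subunit of muscle, went the other way. It was at 5.94, 8.35, 1.05 and 0.795 CPM, with 131, 231, 18 and 13 counts, 5.67-fold lower in the WT (3.45 to 9.86) and 10.5-fold lower in the KO titles (6.02 to 20.02). Fbxo31, which marks D-type cyclins after DNA damage, was at 20.4, 23.6, 8.38 and 4.77 CPM, 2.43-fold lower (2.01 to 2.96) and 4.94-fold lower (3.90 to 6.33). The list therefore held called members in both directions, each the same way in both titles.

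Among the 9 members with substrates in the cell cycle or genome maintenance, 1 was called higher and 2 lower in the WT titles, and 1 lower in the KO titles. Fbxo5, which encodes Emi1, an inhibitor of the anaphase-promoting complex, was at 18.5, 12.9, 4.77 and 8.38 CPM. Both LPS libraries were below both untreated ones, but the ratio was 3.88-fold lower in the WT (3.06 to 4.99) and 1.54-fold lower in the KO titles (1.26 to 1.89). Fbxo4, reported to mark a D-type cyclin, was at 14.4, 16.9, 29.1 and 32.9 CPM, 2.02-fold higher in the WT (1.75 to 2.33) and 1.95-fold higher in the KO titles (1.72 to 2.21). The call of Fbxo4 in 1 title thus came from values on either side of the 2-fold limit. Fbxo18, a DNA helicase, fell short of the limit with 58.9, 50.9, 40.7 and 34.9 CPM.

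The 4 members of mitochondrial and iron control held 1 call, in the WT titles. Fbxl5, the iron-sensing subunit that marks iron regulatory proteins, was at 35.7, 33.2, 80.2 and 57.0 CPM, 2.25-fold higher in the WT (2.06 to 2.45) and 1.72-fold higher in the KO titles (1.57 to 1.88). Fbxo7, which takes part in the removal of damaged mitochondria, was at 15.2, 13.3, 18.2 and 13.9 CPM, and its untreated and LPS libraries overlapped. Fbxl4, which restrains that removal, was at 14.7, 15.9, 11.0 and 8.08 CPM and was not called.

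Of the 17 members listed for protein quality control, trafficking and other substrates, 1 was called higher and 3 lower in the WT titles, and 5 lower in the KO titles. Fbxl20, whose product is known for marking a synaptic protein and the lipid kinase Vps34, was at 67.7, 63.3, 20.5 and 18.7 CPM. It was 3.30-fold lower in the WT (2.94 to 3.72) and 3.39-fold lower in the KO titles (3.00 to 3.84), and no other member that was lower in both titles was as abundant in untreated cells on the CPM scale. Fbxo10, whose product marks the survival protein BCL2, was at 8.12, 10.4, 2.68 and 1.90 CPM, 3.03-fold lower (2.18 to 4.29) and 5.51-fold lower (3.80 to 8.26). Fbxw17 was at 37.6, 49.6, 119 and 82.3 CPM; it was 3.17-fold higher in the WT (2.92 to 3.44) and 1.66-fold higher in the KO titles (1.54 to 1.79). Fbxo6 and Fbxo44, the members placed in a list named for glycoprotein binding, were called in neither title. Fbxo6 was at 29.3, 40.0, 39.8 and 34.8 CPM and its libraries overlapped.

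The remaining calls were in 1 title each. Fbxo48 with 52, 38, 14 and 12 counts was 2.89-fold lower in the WT titles (1.58 to 5.65), and Fbxo36 with 38, 46, 6 and 13 counts was 4.93-fold lower there (2.07 to 14.3). In the KO titles, Fbxl18 was 2.02-fold lower (1.74 to 2.35), Fbxw4 2.06-fold lower (1.72 to 2.48) and Fbxw10, with 40, 44, 16 and 2 counts, 13.0-fold lower (3.39 to 111), a ratio against 2 counts. Calls in the KO titles alone were of lower genes, and those in the WT titles alone were 3 higher and 3 lower. The share of all genes called in 1 title alone is not given here, so these counts are no contrast between the titles. With DESeq2 size factors Fbxo4 was called higher in the KO titles too (log2 ratio 1.05), and Fbxl18 and Fbxw4 lost their calls there.

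By class, the 14 Fbxl genes held 2 higher and 2 lower calls in the WT and 1 and 5 in the KO titles. For the 27 Fbxo genes these were 3 and 7, and 2 and 4. The 8 Fbxw genes held 2 higher and none lower in the WT titles, namely Fbxw11 and Fbxw17, and 1 higher and 2 lower in the KO titles. Over the 5 comparisons of libraries described here, 28 members were called in none. The share of all genes called in none is not given here, so this count is no result about the family.

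The library scaling bears on these directions. With library totals in place of TMM factors, the median log2 ratio of all genes moved by -0.60 in the WT and -0.46 in the KO titles. The members then called were 3 higher and 21 lower in the WT titles (6.12% and 42.9%) and 3 higher and 27 lower in the KO titles (6.12% and 55.1%). Among all genes the shares with library totals were 9.74% higher and 32.8% lower in the WT and 9.53% and 31.3% in the KO titles, so the tilt to lower calls was seen over all genes too. Fbxw11 then had a log2 ratio of 0.49 in the WT titles, Fbxl5 of 0.55, Fbxo4 of 0.40 and Fbxo30 of 0.74 in the WT and 0.83 in the KO titles, still higher but under 2-fold. With DESeq2 size factors the calls of Fbxl18 (-0.92) and Fbxw4 (-0.94) in the KO titles fell under 2-fold.

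An additive model of genotype and treatment over all 4 libraries (edgeR's quasi-likelihood test, 13989 genes, Benjamini-Hochberg adjusted p under 0.05) gave the LPS effect common to both titles. It uses the same libraries as the comparisons above and leaves 1 residual degree of freedom. With it 6 members rose (12.2%) and 6 fell (12.2%), against 9.35% and 5.14% of all genes tested (14.5% either way), and the median effect of the members was -0.42 on the log2 scale beside -0.05 for all genes. Both LPS libraries were above or below both untreated ones for each of the 12. The error of this fit is the disagreement between titles, so that agreement follows largely from the selection and adds no support. Among the members that rose were Fbxw11 (1.40 ± 0.25, SE, adjusted p = 0.0288), Fbxo30 (1.36 ± 0.21, 0.0208), Fbxo4 (1.02 ± 0.23, 0.0471), Fbxl5 (1.01 ± 0.21, 0.0420) and Fbxo11 (0.93 ± 0.20, 0.0449). Those that fell were Fbxl20 (-1.71 ± 0.20, adjusted p = 0.0109), Fbxo21 (-1.72 ± 0.25, 0.0183), Fbxo32 (-2.90 ± 0.47, 0.0228), Fbxl19 (-1.51 ± 0.27, 0.0278), Fbxo31 (-1.75 ± 0.36, 0.0410) and Fbxo10 (-1.99 ± 0.42, 0.0419). Fbxo40 (2.76 ± 0.79, 0.0820) and Fbxw17 (1.23 ± 0.29, 0.0539) did not pass. With library totals in edgeR, 1 member rose and 17 fell, 7 of these 18 being among the 12, and Fbxw11 was at 0.82. In the comparisons of 2 libraries, library totals moved the median of all genes by -0.60 and -0.46. The share of all genes in the edgeR run with library totals is not given here, so its 17 are no result about the family.

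**Figure D3:**
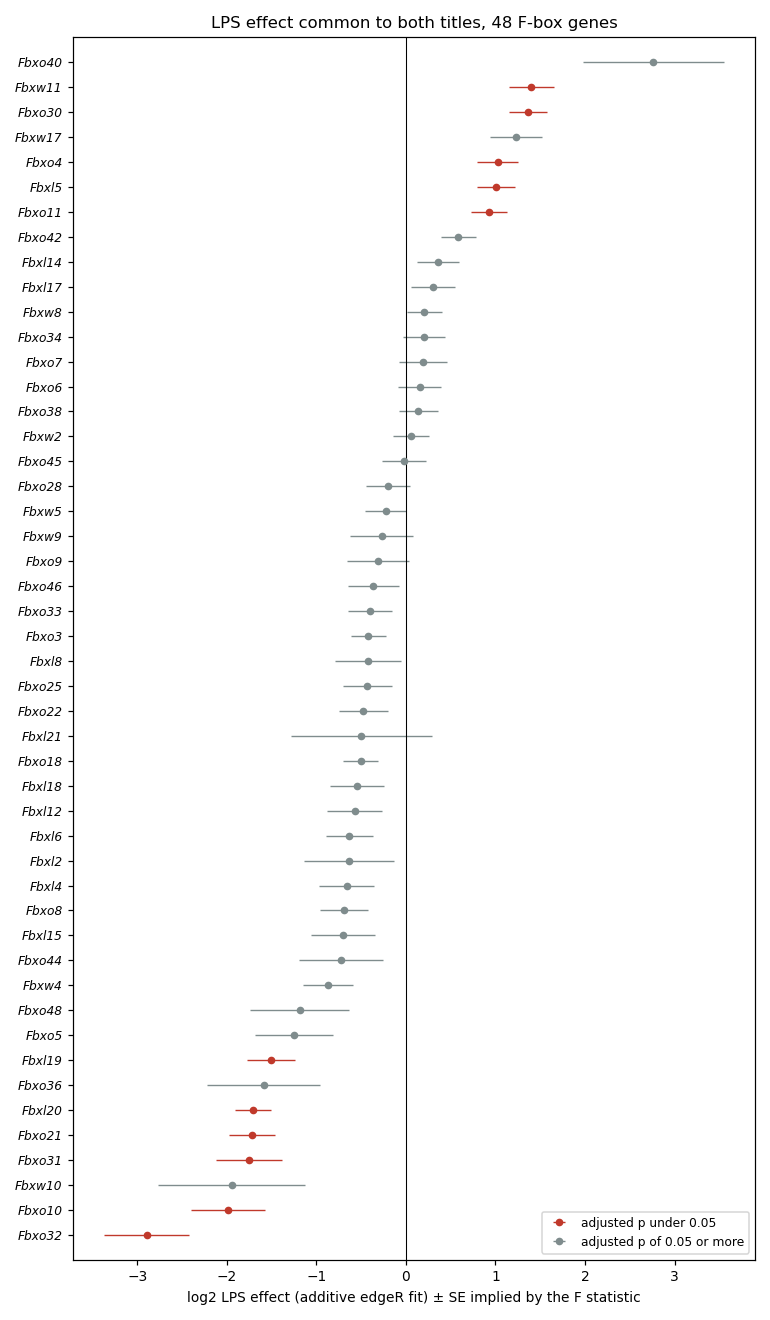
Log2 LPS effect common to both titles for 48 of the F-box genes in the additive edgeR fit; bars are the SE implied by the F statistic and red marks an adjusted p under 0.05. The 5 drawn genes that rose lie between 0.93 and 1.40 and the 6 that fell between -2.90 and -1.51.

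In the authors' deposited table, 5 members had an adjusted p under 0.05 with a higher and 8 with a lower level after LPS in the WT titles, against 9.94% and 8.30% of all genes (18.2% either way). For the KO titles the authors' deposited table gave 4 higher and 9 lower, against 9.05% and 10.2% (19.2% either way). For KO against WT, the authors' deposited table gave 0 members untreated, against 0.823% of all genes (0.651% higher, 0.172% lower), and 0 members after LPS, against 1.59% (0.634% higher, 0.961% lower). These p-values come from the same libraries, 1 per group, so they rest on no replicates and add no separate support.

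KO was compared with WT in each treatment to ask whether the loss of 1 F-box gene moved the others. Untreated, 1 of the 49 members was called, against 5.18% of all genes (3.16% higher and 2.03% lower): Fbxl2, 2.11-fold higher in the library titled KO (1.68 to 2.67), with 105 and 278 counts. After LPS, none was called higher and 2 lower, against 3.42% and 4.81% of all genes (8.23% either way). These were Fbxl21, 2.96-fold lower (1.36 to 7.13) with 28 and 9 counts, and Fbxw10, 7.61-fold lower (1.79 to 68.3) with 16 and 2 counts. In the additive model no member passed for genotype (0 of 13989 genes did, by edgeR's quasi-likelihood test), none had an unadjusted p under 0.05 (39 of all genes did), and DESeq2 and limma-voom gave 0 members too. For 32 of the 49 members the KO to WT difference had opposite signs untreated and after LPS, with a Pearson r of -0.40 and a Spearman rho of -0.43 across members, beside -0.61 and -0.53 over all 12326 genes. The opposite signs were thus seen over all genes as well as over the F-box genes. The additive model fits a common genotype effect for both treatments, so differences of opposite sign cancel in it and widen its error. Its lack of genotype calls therefore cannot tell whether a member differed between titles within a treatment.

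**Figure D4:**
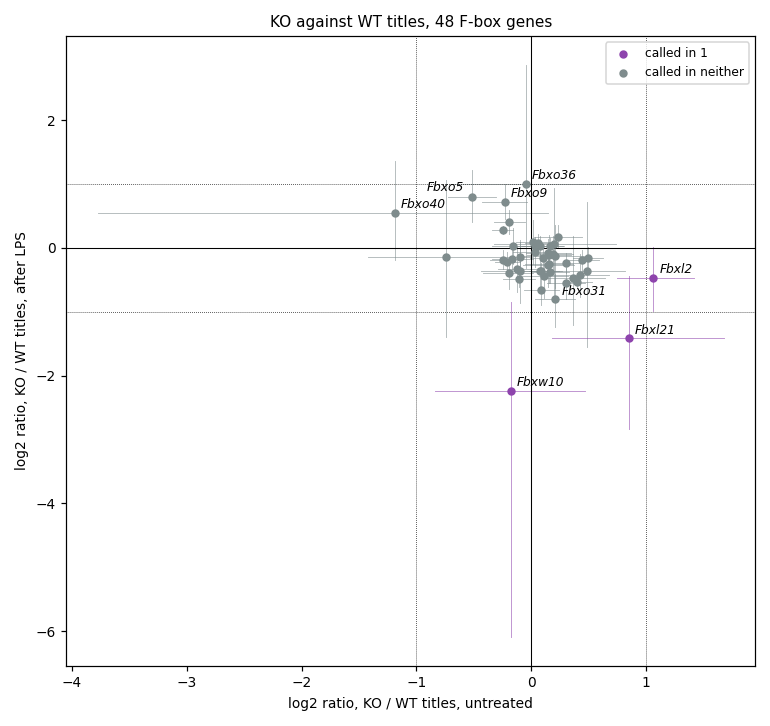
Log2 ratio of KO to WT titles, untreated (x axis) and after LPS (y axis), for 48 of the F-box genes with exact 95% intervals of the counts; dotted lines mark 2-fold. Most genes lie within 2-fold on both axes, and Fbxl2, Fbxl21 and Fbxw10 are the 3 called, each on 1 axis.

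The LPS response differed between titles by at least 2-fold, with a 95% Poisson interval that excluded no difference, for 6 of the 49 members: 2 with a higher and 4 with a lower response in the KO titles (4.08% and 8.16%), against 7.75% and 10.3% of all genes (18.1% either way). The difference, KO minus WT on the log2 scale, was 1.32 for Fbxo5 (0.87 to 1.76) and 1.74 for Fbxo40 (0.16 to 3.32). It was -1.01 for Fbxo31 (-1.44 to -0.58), which fell under the 2-fold limit with DESeq2 size factors (-0.95) and with library totals (-0.86), -1.53 for Fbxl2 (-2.10 to -0.97), -2.05 for Fbxw10 (-3.73 to -0.38) and -2.26 for Fbxl21 (-3.47 to -1.06). Of these, Fbxo5, Fbxo31 and Fbxl2 had 60 or more counts in every library, while the other 3 had a library with under 10. Fbxo9, with 407, 434, 178 and 281 counts in the untreated WT, untreated KO, LPS WT and LPS KO libraries, was just under the limit at 0.96 (0.63 to 1.29). It passed the limit with DESeq2 size factors (1.01) and with library totals (1.10). Without replicates the spread behind these differences is unknown.

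The ligase machinery around the F-box genes was compared on the same scale. F-box genes named outside the Fbx pattern, which the rule did not take, included Ccnf, Skp2, Kdm2a, Kdm2b, Btrc and Lrrc29; of these 6, 3 were called lower in the WT and 5 in the KO titles and none higher, beside 15.0% and 17.8% of all genes called lower. Their median log2 ratios were -1.18 and -1.74, beside -0.01 and -0.07 for all genes. Ccnf, encoding cyclin F, was at 38.8, 18.9, 2.74 and 4.16 CPM in the untreated WT, untreated KO, LPS WT and LPS KO libraries, 14.2-fold lower in the WT and 4.55-fold lower in the KO titles. Skp2, whose product marks the cell cycle inhibitor p27, was at 12.2, 12.4, 4.48 and 3.55 CPM. Btrc, the partner of Fbxw11 in the beta-TrCP pair, was at 20.4, 23.9, 15.4 and 9.24 CPM and was called lower in the KO titles only, with a ratio of 1.33-fold lower in the WT titles (1.14 to 1.55) and 2.59-fold lower in the KO titles (2.16 to 3.11). Of the 2 genes that encode beta-TrCP proteins, Fbxw11 was called higher in both titles and Btrc lower in 1.

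Of 11 genes of the SCF core, none was called in the WT titles and 1 higher in the KO titles, with medians of 0.16 and 0.32. Skp1a was at 83.1, 80.5, 93.1 and 95.2 CPM and Cul1 at 76.6, 68.4, 75.7 and 77.3 CPM, a narrow range beside that of the F-box genes. The 1 called was Cks1b, the cofactor of Skp2, at 22.5, 11.6, 14.4 and 35.6 CPM. Of 11 genes of cullin neddylation, 3 were called higher in both titles (Ube2f, Dcun1d5 and Dcun1d3) and these 3 also rose in the additive model. Ube2f, a NEDD8-conjugating enzyme, was at 51.4, 48.8, 233 and 267 CPM, 4.54-fold and 5.46-fold higher. RNA levels do not show which cullin receives NEDD8, and this was not measured. Dcun1d4 was called lower, in the WT titles. Of 12 genes of the CAND proteins and the COP9 signalosome, which exchange F-box proteins and remove NEDD8, none was called in the WT titles and 1 lower (Cand2) in the KO titles. Of 7 other cullins, none was called in the WT titles, and Cul3 was higher and Cul7 lower in the KO titles.

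**Figure D5:**
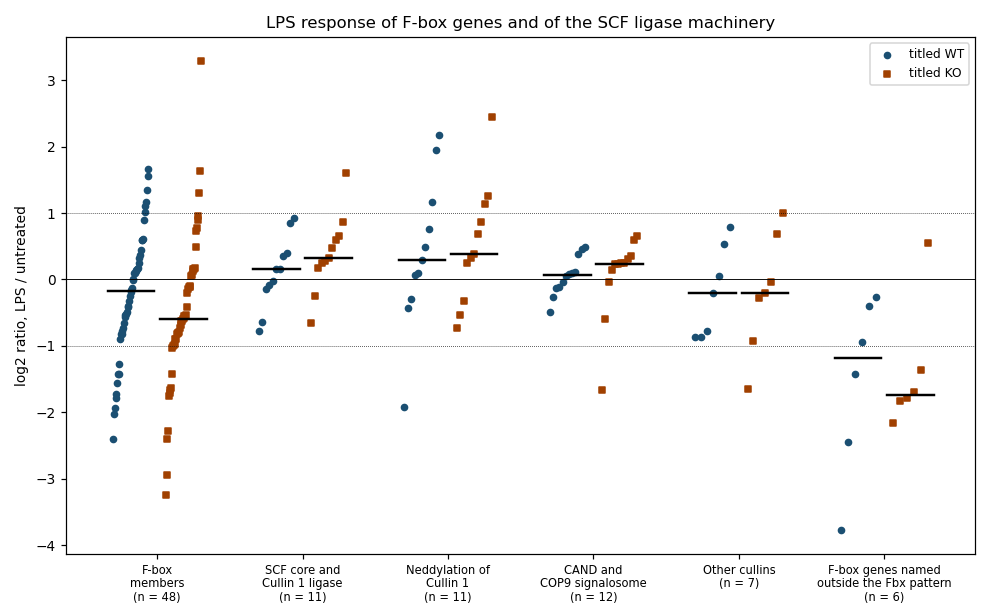
Log2 ratio of LPS to untreated for 48 of the F-box genes and 5 lists of ligase machinery, with 1 point per gene (circles titled WT, squares titled KO) and bars at the median of the genes drawn. F-box genes spread from under -2 to over 1.5 in both titles, while the SCF core and the CAND and COP9 genes lie mostly within 2-fold.

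Some members share exon bases with another gene in GENCODE M21 (GRCm38), and the strand setting of the counting was not given in the sources used here. This held for 16 members, 14 with a gene on the opposite strand and 2 with one on the same strand. The share was over 10% for 6: Fbxl12 with Ubl5 (37.1%), Fbxw8 with Gm9754 (33.4%), Fbxl15 with Cuedc2 (25.6%), Fbxw4 with Gm17018 (21.4%), Fbxo22 with Nrg4 (15.4%) and Fbxl2 with Ubp1 (11.2%). These are shares of exon bases, not of reads, and how many reads the overlapping genes gave was not measured, so the counts of all 16 are uncertain; Fbxw4 and Fbxl2 are among the called genes. Among the members that moved the same way in both titles, Fbxl20 shared 5.57% and Fbxo32 2.67%. Fbxw11 lies on the plus strand of chromosome 11 from 32642724 to 32746816, in the coordinates of the deposited table (mm10).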

How the data were processed

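HISAT2 2.0.5 and mm10 are named in the submitters' processing notes for the alignment of these polyadenylated RNA reads. Per the file headers, the authors deposited whole-number counts per gene, FPKM, and log2 fold changes with p-values for 4 comparisons. No program, strand setting or annotation for the counting was given in the sources used here. Per-sample values in 8 further columns stayed unused. Whether libraries came from separate cultures or pooled mice was not given either.

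Samples were grouped by title, 1 library per group. Counts were scaled by TMM (edgeR 4.0.16). Log2 CPM ratios used a prior count of 2; a call needed a mean of at least 1 CPM, a 2-fold ratio and an exact (Clopper-Pearson) 95% interval that excluded no change. Printed folds carry no prior count. A level of 3 counts, the limit that a count of 0 allows, was 0.108 to 0.184 CPM. Intervals and that limit cover counting error only, since reads without molecular identifiers are not independent molecules. For differences of responses, Poisson variances of the 4 counts were summed on the log scale. The additive edgeR quasi-likelihood fit (filterByExpr) had 1 residual degree of freedom, and its SE is the effect divided by the square root of F. All tests ran over the whole table, on code tested on simulated counts. DESeq2 1.42.0 and limma 3.58.1 (voom) served as alternatives, with R 4.3.3. Tables and intervals were made in Python 3.11.15 (SciPy 1.17.1, NumPy 2.4.6, pandas 2.3.3) and plots with matplotlib 3.10.9. Members and gene lists were chosen with earlier results of these data known. Every member was eligible to be named, with full values for those called, except that 1 is not reported here by name or drawn; it stays in the counts over members.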

Additional observations from a re-analysis of the deposited data

Results flagged for a closer look

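The LPS response of 6 F-box genes differed between the KO and WT titles by at least 2-fold on counting error. No difference was tested against replicates, since each group held 1 library. Fbxo9 was just under 2-fold here but passed that limit with DESeq2 size factors and with library totals. The difference, KO minus WT on the log2 scale, was 1.32 for Fbxo5, which was 3.88-fold lower after LPS in the WT and 1.54-fold lower in the KO titles. It was -1.01 for Fbxo31, lower in both titles, a call lost with DESeq2 size factors (-0.95) and with library totals (-0.86), and -1.53 for Fbxl2, which was called lower in the KO titles only. For the scarce genes it was -2.05 for Fbxw10 (40, 44, 16 and 2 counts in the untreated WT, untreated KO, LPS WT and LPS KO libraries), -2.26 for Fbxl21 (23, 54, 28 and 9 counts) and 1.74 for Fbxo40 (10, 4, 26 and 37 counts). On the CPM scale Fbxl2, Fbxl21 and Fbxo31 were highest in the untreated KO library, and these 3 and Fbxw10 were lowest in the LPS KO library. Lyz1, with 63, 910, 569 and 43 counts in the same order, and the titles' disagreement with the genotype tags stand beside all 6, and their part in these differences was not tested.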

How the results depend on the processing

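No called member reversed its direction under any alternative run. With the authors' FPKM and a pseudocount of 1, 9 members (18.4%) were called for LPS in the WT and 8 (16.3%) in the KO titles. Among all genes these shares were 18.4% and 18.5%. For KO against WT this scale called 0 members untreated and 0 after LPS, against 1.86% and 3.00% of all genes. For the difference of responses it called 1 (2.04%), against 9.47%. This scale shrinks the ratios of genes at low FPKM. With a 1.5-fold limit the LPS calls were 24 in the WT titles (49.0% of members, 48.5% of all genes). In the KO titles they were 31 (63.3% and 52.8%). For KO against WT the counts were 3 untreated and 6 after LPS (6.12% and 12.2%, against 13.9% and 18.8%). For the difference of responses the count was 15 (30.6% against 33.4%). With library totals, LPS calls were 24 in the WT titles (3 higher, 21 lower) and 30 in the KO titles (3 higher, 27 lower). These were 49.0% and 61.2% of members, against 42.5% and 40.8% of all genes. KO against WT untreated then gave 0, against 5.36% of all genes, Fbxl2 being at 0.96. With DESeq2 size factors the KO titles gave 5 higher and 9 lower, without Fbxl18 and Fbxw4. The difference of responses then gave 3 in each direction, without Fbxo31 and with Fbxo9 added as higher. For Fbxo9 it was 0.96 with TMM, 1.01 with DESeq2 size factors and 1.10 with library totals, where it was called too. An adjusted p of 0.01 left 0 members for the common LPS effect, while DESeq2 and limma-voom each called 13 and edgeR without a filter on low counts 15, all 12 included. Chosen after seeing the data, LPS libraries were set against the untreated library of the other title: 14 members were called for the WT and 16 for the KO LPS library, and Fbxo4, Fbxo48, Fbxl18, Fbxw4, Fbxl2 and Fbxl21 lost their calls. Library totals in edgeR were added then too and gave 18. No share of all genes is given for these added runs, nor for DESeq2, limma-voom and edgeR without a filter. Their counts are therefore no result about the family. The additive model holds a term for the title and so pairs each LPS library with the untreated library of its title. No further pairing was possible because each group held 1 library with no replicate number to pair on. For the same reason no replicate could be left out.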

Other observations

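Among the F-box genes under 50 counts, Fbxo24 had 12 and 18 counts in the untreated WT and KO libraries and 1 and 0 in the LPS WT and KO libraries. Fbxo47 had 8, 22, 6 and 5 counts in the same order. Fbxw27 had 5 counts, all in the LPS KO library. These genes were in no count or test of the members.

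Fbxo6 and Fbxo44 lie next to each other on the minus strand of chromosome 4, at 148145716 to 148152140 and 148152800 to 148160482 (mm10). Both were placed in the list named for glycoprotein binding, which was not measured here. Fbxo6 was at 13.0, 17.5, 18.1 and 16.2 FPKM in the untreated WT, untreated KO, LPS WT and LPS KO libraries, and Fbxo44 at 0.764, 0.864, 0.483 and 0.519 FPKM. The neighbours thus differed in level by over 10-fold in every library, and neither was called after LPS.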
